A study of Mus musculus with 7 samples.

Results

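Star-strand miRNAs are the passenger strands that the array names with an asterisk. The array carried 118 such names among its 696 mouse miRNAs, and 93 of them are described here. Left out were 13 names from the imprinted Dlk1-Dio3 locus, 4 from the miR-297, miR-466, miR-467 and miR-669 families, 3 with numbers of 1000 and above, and miR-21*, miR-31*, miR-140*, miR-199b* and miR-378*, which belong with their guide strands. Of the 93 star strands, 92 had a guide strand on the same array, and these guides came to 88 distinct names, because some guides are cut from more than 1 precursor. The exception was miR-374*.

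Total kidney RNA came from male C57BL/6 mice, 9 to 12 weeks old, collected 28 days after either ligation of the left ureter or a sham operation, and was hybridised to 1-colour Agilent arrays. Of the 7 arrays, 4 carry the group label non-treated (titled C1 to C4) and 3 the label treated (titled S1, S3 and S4). They are called the C arrays and the S arrays here. Each operation was done on 4 mice, and an array S2 was not analysed here. Nothing else in the labels tells the mice apart, and p-values measure only the spread between these samples. Ligation is an obstruction model of kidney fibrosis, and whole kidneys were used, so that fewer cells of a type and less RNA per cell cannot be told apart. Which label stands for the ligated kidneys is not settled, since S may stand for sham. Every direction follows the deposited label, as S arrays over C arrays. It is opposite to the study's direction for those of its listed miRNAs whose values are given here. Among them are miR-30e* and miR-30a*, which the study lists as down-regulated in obstructed kidneys.

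A miRNA precursor is a hairpin that the enzyme Dicer cuts to a short duplex. An Argonaute protein keeps 1 strand of the duplex, the guide, and the other strand, the passenger or star strand, is mostly discarded. A star strand that is itself loaded pairs with other messenger RNAs than its guide, because target choice rests mainly on the seed, bases 2 to 8 from the 5′ end. Where 1 guide is cut from several precursors, the star strands often differ between them and can then be traced to a single locus. MiR-9* is an exception among those described here, with the same RefSeq sequence from Mir9-1, Mir9-2 and Mir9-3.

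The sequences below are those of the star strands whose values the results turn on, with a few guides for comparison. They are the RefSeq entries on the GRCm38.p6 assembly, found for 21 of 22 star strands looked up. The arrays use star names and RefSeq uses the names of the 2 arms, and the names were matched by the usual nomenclature, not by a column of the deposited files. Each is written 5′ to 3′ with the seed in capitals. The first group holds star strands of the miR-30 family and 2 of their guides, to show which star strands share a seed.
miR-30a*: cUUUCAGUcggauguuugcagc
miR-30e*: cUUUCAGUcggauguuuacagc
miR-30c-1*: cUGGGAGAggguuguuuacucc
miR-30c-2*: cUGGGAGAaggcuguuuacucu
mmu-miR-30a-5p: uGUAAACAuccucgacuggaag
mmu-miR-30c-5p: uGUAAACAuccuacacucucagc

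MiR-30a* (chr1:23272315-23272336, plus strand) and miR-30e* (chr4:120772618-120772639, minus strand) shared a seed and differed at 1 position, G18A counted from the 5′ end of miR-30a*. MiR-30c-2* (chr1:23291754-23291775, plus strand) carried the other star seed of the family, shared with miR-30c-1* (chr4:120769546-120769567, minus strand), from which it differed at 3 positions. The guides of all 4 share a further seed, so the star strands split a family that the guides hold together. Mir30e and Mir30c-1 lie within the annotated gene Nfyc, which encodes a subunit of a transcription factor, and Mir30a and Mir30c-2 overlap no other annotated gene. Because miR-30a* and miR-30e* differ by a single base, how far the probes of one also bound the other cannot be resolved from these data. The second group holds the star strands of the miR-200 family and of miR-29c.
miR-200a*: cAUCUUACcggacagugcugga
miR-200b*: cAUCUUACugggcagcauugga
miR-29c*: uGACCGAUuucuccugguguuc

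MiR-200a* (chr4:156054949-156054970) and miR-200b* (chr4:156055721-156055742), both on the minus strand within the non-coding gene Gm13648, shared a seed, whereas their guides had different seeds. MiR-29c* lies at chr1:195037562-195037583 on the plus strand, within the non-coding gene A330023F24Rik. The third group holds the pair of loci that make the same guide, miR-24.
miR-24-1*: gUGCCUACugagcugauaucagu
miR-24-2*: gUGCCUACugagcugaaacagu
mmu-miR-24-3p: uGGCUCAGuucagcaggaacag

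MiR-24-1* comes from chr13:63301213-63301235 on the plus strand, within the protein-coding gene Aopep. MiR-24-2* comes from chr8:84208839-84208860 on the plus strand, outside other annotated genes. Their first 16 bases are identical, and they were measured by different probes whose cross-reaction is not known.

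Detection came first. Agilent's software called 12 of the 93 star strands (12.9%) detected on all 7 arrays and 60 (64.5%) on none. Among the 578 names without a star, 170 (29.4%) were detected on all arrays and 330 (57.1%) on none. For 61 star strands the guide was detected on every array, and 35 of these star strands were detected on no array. Of the 7 star strands of the let-7 family, which marks differentiated cells, only 2 were detected on any array. None of the star strands of miR-133a and miR-145, known from muscle, or of miR-146b and miR-150, known from leukocytes, was detected on any array.

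The 4 C arrays detected 28, 30, 21 and 24 star strands and the 3 S arrays 15, 18 and 15. These ranges did not overlap (2-sided exact permutation p = 0.0571 over 35 splits, the smallest that 4 against 3 arrays can give, so this test cannot pass 0.05). The guides of the star strands were detected 64 to 68 times on a C array and 57 to 60 times on an S array, again without overlap. Brightness moved with the labels as well. Before scaling, the miRNAs that all arrays detected had a mean log2 signal of 7.24 ± 0.40 (SD, n = 4) on C arrays against 6.09 ± 0.32 (SD, n = 3) on S arrays, and the spike-in controls were at 11.9 ± 0.30 and 11.4 ± 0.32. The part of this difference in the detection counts was not tested. With a stricter limit, a signal over 5 times its error, the medians were 18.5 and 11 star strands per array.

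**Figure D1:**
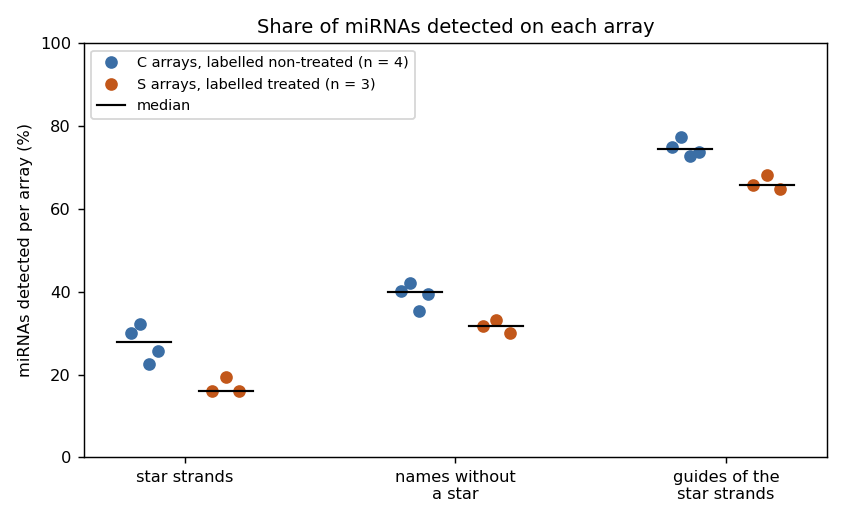
Share of miRNAs detected on each array, in percent of the names in each class on the horizontal axis; each point is an array, blue for the 4 C arrays (labelled non-treated) and orange for the 3 S arrays (labelled treated), and the line is the median. In all 3 classes the S arrays lie below the C arrays, and star strands are detected less often than their guides.

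Of the star strands seen on some arrays only, 14 were detected on C arrays alone, 42.4% of the 33 detected on any array. Among names without a star this held for 55 of 248 (22.2%). The reverse held for 1 star strand, miR-302b*, from a cluster known from embryonic stem cells, whose guide was detected on no array, and for 2 of those 248 names. The signal of miR-302b*, summed over its probes, was negative on all 7 arrays (-0.95, -1.08 and -0.92 on S1, S3 and S4). Its detection call thus had no positive summed signal behind it. In scaled linear signal, the lowest value called detected was 5.34 to 6.71 on the S arrays and 1.99 to 2.49 on the C arrays. Star strands were also dimmer than names without a star, as given below. The part of this in the shares of 42.4% and 22.2% was not tested. In 3 cases the star strand was detected on all 7 arrays while the strand without a star was not. The strand without a star was called on 2 arrays for miR-17, a member of the growth-promoting miR-17-92 cluster, on 2 arrays for miR-674 and on 3 arrays for miR-9, best known from the nervous system. For these hairpins the asterisk did not mark the less detectable strand on this array, whose probes differ in affinity.

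Signals were next compared between the labels after each array was scaled by its mean log2 signal over the miRNAs detected everywhere, which sets where no change lies. A miRNA was tested if every array of at least 1 label detected it. Of the 93 star strands, 22 could be tested, and 12 of these were detected on all 7 arrays. Of these 12, 9 were higher and 2 lower on the S arrays at a limma adjusted p under 0.01. Among all 186 miRNAs detected on all arrays, 59.1% passed, 29.6% higher and 29.6% lower. The median log2 fold change was 0.98 over the 12 star strands, against -0.039 over the 170 names without a star that were detected on all arrays and -0.13 over all 236 miRNAs tested. The 12 star strands were dim, with a median log2 signal of 3.91 against 6.63 for those 170, and the median SD between arrays of a label was 0.203 against 0.127.

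**Figure D2:**
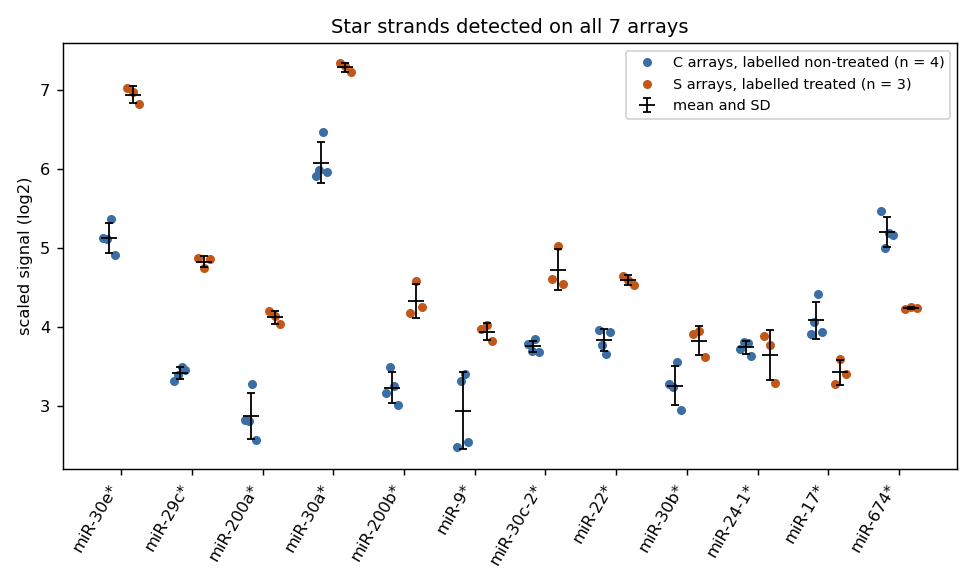
Scaled log2 signal (vertical axis) of the 12 star strands detected on all 7 arrays; each point is an array, blue for C arrays (n = 4) and orange for S arrays (n = 3), and the bars are the mean and SD. The 2 labels do not overlap for any of them except miR-24-1* (11 of 12, where 71.5% of all 186 miRNAs detected on all arrays do not overlap), and miR-17* and miR-674* are the ones that lie lower on the S arrays.

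The miR-30 family, abundant in kidney tubule epithelium, gave 4 of the 9 higher star strands. All 4 of its testable star strands were higher on the S arrays, of 5 on the array. MiR-30e* had log2 signals of 5.12, 5.12, 5.37 and 4.91 on the C arrays and 7.02, 6.98 and 6.81 on the S arrays. Every array of one label was thus clear of every array of the other, and the log2 fold change was 1.81 (SE 0.118, limma adjusted p = 2.5e-06). For miR-30a* the values were 5.91, 5.98, 6.46 and 5.96 against 7.33, 7.30 and 7.22, a log2 fold change of 1.21 (SE 0.139, limma adjusted p = 7.42e-05). The array C3 stood above its group for miR-30a*, and it was also the dimmest array of its group before scaling. MiR-30c-2* had 3.79, 3.70, 3.85 and 3.69 against 4.61, 5.03 and 4.55, a log2 fold change of 0.97 (SE 0.126, limma adjusted p = 1.41e-04). MiR-30b* moved least, by 0.57 (SE 0.149, limma adjusted p = 0.00833), and its 4 probes were not of one sign, with differences from -0.0087 to 0.65. It missed the threshold without C1, C2, C4, S1 or S3, with limma adjusted p from 0.0161 to 0.037. MiR-30c-1*, chosen after its values were seen, was called on 3 of the 7 arrays and could not be tested.

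MiR-29c*, whose guide belongs to a family known to repress collagen and other matrix genes, had log2 signals of 3.32, 3.40, 3.50 and 3.46 on the C arrays and 4.88, 4.75 and 4.86 on the S arrays. Its log2 fold change was 1.41 (SE 0.082, limma adjusted p = 1.62e-06). The star strand of another precursor of the family, miR-29b-1*, stayed between 2.40 and 3.08 on all arrays and did not pass (log2 fold change -0.18, SE 0.153, limma adjusted p = 0.331), but it passed as lower without scaling (-1.22), with the mean of all miRNAs (-1.06) and with spike-in controls (-0.86). With normexp background correction it passed as higher (0.48, limma adjusted p = 0.00212). With the scaling used, the shared guide miR-29b was 1.18 higher (SE 0.121, limma adjusted p = 3.94e-05). Before scaling, the linear signals of miR-29b overlapped, at 877, 1063, 507 and 1186 on the C arrays and 848, 1122 and 708 on the S arrays. Guide miR-29b is also cut from Mir29b-2, which lies in A330023F24Rik as Mir29c does, and no star strand of Mir29b-2 was analysed here. Called detected on all 4 C arrays but on only 1 S array, miR-29b-1* was close to the background, and it was chosen after its values were seen.

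The miR-200 family, which maintains the epithelial state by repressing the Zeb transcription factors, had 4 star strands on the array, of which 2 were testable and both were higher on the S arrays. MiR-200a* had log2 signals of 2.83, 2.82, 3.28 and 2.58 against 4.20, 4.15 and 4.04, a log2 fold change of 1.25 (SE 0.156, limma adjusted p = 1.17e-04). MiR-200b*, from the same cluster and with the same seed, had 3.17, 3.49, 3.25 and 3.02 against 4.18, 4.58 and 4.25, a log2 fold change of 1.10 (SE 0.140, limma adjusted p = 1.3e-04). Within each label the array with the highest value was not the same for both, C3 and S1 for miR-200a* and C2 and S3 for miR-200b*.

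The other 2 higher star strands were miR-22* and miR-9*. MiR-22*, from a hairpin in the non-coding gene Mir22hg, had log2 signals of 3.96, 3.78, 3.66 and 3.94 against 4.65, 4.60 and 4.54 (log2 fold change 0.76, SE 0.097, limma adjusted p = 1.3e-04). MiR-9* was the most variable of the 12, with 2.49, 3.33, 3.41 and 2.55 against 3.98, 4.02 and 3.82. The C arrays fell into a lower and a higher pair, all below the S arrays, and the log2 fold change was 0.998 (SE 0.241, limma adjusted p = 0.00562). It missed the threshold when C1, C4, S1, S3 or S4 was left out, with limma adjusted p from 0.0125 to 0.0244.

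The 2 star strands lower on the S arrays were miR-674* and miR-17*, whose partner strands were not detected on most arrays. MiR-674* had log2 signals of 5.47, 5.004, 5.19 and 5.17 on the C arrays and 4.23, 4.25 and 4.25 on the S arrays, a log2 fold change of -0.96 (SE 0.112, limma adjusted p = 7.76e-05). For miR-17* they were 3.92, 4.07, 4.42 and 3.94 against 3.28, 3.60 and 3.41, a log2 fold change of -0.66 (SE 0.142, limma adjusted p = 0.00301), and it missed the threshold without S1 (limma adjusted p = 0.0146) or without S4 (limma adjusted p = 0.016). Neither pair of ranges overlapped. Of the 8 star strands of the miR-17-92 cluster and its paralogs, 3 were detected on any array and only miR-17* could be tested.

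Scaling decided the sign of several of these differences. Without any scaling, the 236 miRNAs tested had a median log2 fold change of -1.22, and with scaling by spike-in controls -0.80. Under no scaling, miR-30e*, miR-29c*, miR-200a* and miR-30a* kept a positive difference, of 0.65, 0.25, 0.094 and 0.050, none past the threshold, whereas miR-200b*, miR-9*, miR-30c-2*, miR-22* and miR-30b* turned to -0.056, -0.16, -0.18, -0.40 and -0.59. Scaled by spike-in controls, only miR-30b* of these 9 turned, to -0.11, and 4 remained past the threshold, miR-30e*, miR-29c*, miR-200a* and miR-30a*. Scaled by the mean of all miRNAs, miR-22* and miR-30b* turned, to -0.12 and -0.31. MiR-674* and miR-17* were lower on the S arrays under each scaling shown in the plot, and higher, by 0.22 and 0.23, only with normexp background correction. All 9 higher star strands therefore stood above the typical miRNA on these arrays, and how many stood above 0 depended on the scaling. With the deposited value table, which holds 1 spot per probe, miR-200a*, miR-200b*, miR-22*, miR-30b*, miR-17* and miR-674* no longer passed, at 1.71, 1.65, 0.83, 1.37, -0.30 and -0.53. Its column for S4 holds error estimates, and without that array, in an alternative added after seeing the data, miR-200b* (1.26) and miR-30b* (0.88) passed and the other 4 did not.

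**Figure D3:**
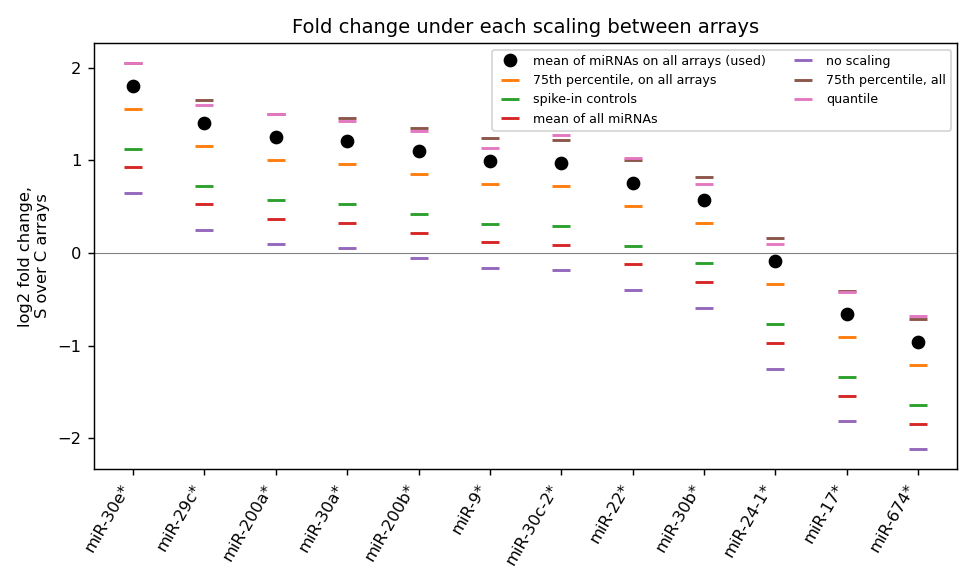
Log2 fold change, S arrays over C arrays (vertical axis), of the 12 star strands under 7 ways of scaling the arrays; black points are the scaling used and each coloured dash is another. All star strands shift together, so their order changes little while the zero line moves, and miR-24-1* lies from -1.25 without scaling to 0.16 with the 75th percentile of all miRNAs.

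A further 10 star strands were tested because every array of only 1 label detected them, so the filter itself favoured a difference, and their counts are a description. Of these, 2 were higher, miR-193* and miR-455*, and 3 were lower, miR-24-2*, miR-135a-1* and miR-181a-1*. In all, 16 of the 22 star strands tested passed, 11 higher and 5 lower, where 61% of all 236 miRNAs tested passed, 26.3% higher and 34.7% lower. MiR-193*, chosen after its values were seen, had 1.64, 2.11, 1.70 and 1.91 on the C arrays and 4.05, 3.81 and 3.78 on the S arrays (log2 fold change 2.04, SE 0.134, limma adjusted p = 2.55e-06), beside a guide that was 2.22 higher (SE 0.116). Without scaling miR-193* was at 0.83 and did not pass (limma adjusted p = 0.0143), and with normexp it was 0.55. Raising all signals to a floor of 2.75, the highest of the arrays' lowest detected signals, in place of 1.32 gave 1.13, and this is called the highest floor here. Also chosen afterwards, miR-455* was 1.10 higher (SE 0.105, limma adjusted p = 2.73e-05), but -0.057 without scaling, and its guide 0.71 higher (SE 0.120). Before scaling, the linear signals of that guide were 57.2, 62.6, 44.8 and 55.3 on the C arrays and 40.7, 49.4 and 31.8 on the S arrays.

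For 5 star strands every array labelled non-treated and no array labelled treated gave a detection call, so only a bound was measured there. Taking as the S-array value the dimmest signal that earned a detection call, or the measured signal where that was higher, miR-181a-1* was at least 1.28-fold lower on the S arrays (limma adjusted p = 0.00156, from S-array signals that were not detected). With the highest floor its difference was -0.25 and did not pass (limma adjusted p = 0.169). With the deposited table the difference was -0.079, or -1.11 without S4, neither past the threshold. The bound therefore holds for the processing used only, and with normexp miR-181a-1* was at 0.19. Its guide, known from lymphocyte development, fell by 0.92 on the log2 scale (SE 0.150). MiR-135a-1* was at least 1.21-fold lower, and 2 of its 3 S-array values lay at the floor of 1.32 (limma adjusted p = 0.00549). With the highest floor its difference was -0.14 and did not pass (limma adjusted p = 0.183). With the deposited table the difference was -0.19 and did not pass, but without S4 it was -1.86 and passed (limma adjusted p = 1.17e-04). This bound too holds for the processing used only, and with normexp miR-135a-1* was at 0.47. Its guide was detected on no array. Without C1, C3, S3 or S4 it missed the threshold, with limma adjusted p from 0.011 to 0.0292. MiR-10a*, from the Hox gene Hoxb3, had overlapping ranges and a log2 difference of -0.030 (limma adjusted p = 0.889), which was 0.22 when scaled by the 75th percentile of all miRNAs and 0.14 with quantile normalization. MiR-322* and miR-7a-1* did not pass either, and no fold is given for these 3. The result for miR-10a* and miR-7a-1* depended on the scaling, and both passed as lower without scaling (-1.19 and -1.02), with the mean of all miRNAs (-0.91 and -0.95), with spike-in controls (-0.71 and -0.75) and with Agilent's own summed signal (-1.13 and -1.18). Let-7d*, the remaining tested star strand and named after its values were seen, had 2.19, 2.92, 2.34 and 2.49 against 1.32, 2.86 and 2.49, overlapping ranges that included 1 array at the floor of 1.32. It did not pass (limma adjusted p = 0.532), but passed as lower without scaling (-0.94) and with the mean of all miRNAs (-0.90). With normexp let-7d* passed as higher (0.51, limma adjusted p = 0.00164), and so did miR-10a* (0.48, limma adjusted p = 0.00276) and miR-322* (0.50, limma adjusted p = 0.00201).

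The star strand was then set against its own guide. The log2 ratio of star to guide within an array does not depend on the factor by which that array is scaled. Its level mixes the amounts of the strands with the number and affinity of their probes, so that only its difference between the labels was tested, over the 11 star-guide pairs of the array with both strands detected on all 7 arrays. Of these pairs, 9 belong to the star strands described here. The mean star-minus-guide log2 signal on the C arrays ran from -6.99 for miR-24-1* to -2.68 for miR-30e*, so every one of the 9 guides gave the stronger signal. Of the 11 pairs, 2 (18.2%) passed, miR-30c-2* with miR-30c and miR-24-1* with miR-24.

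MiR-30c-2* and miR-30c both were higher on the S arrays, but unequally, by 0.97 and 1.61 (guide SE 0.105). The ratio was -5.63, -5.83, -5.90 and -5.68 on the C arrays and -6.48, -6.12 and -6.61 on the S arrays, without overlap. The difference was -0.64 (95% interval -0.93 to -0.35, limma adjusted p = 0.00255). Guide miR-30c is cut from both Mir30c-1 and Mir30c-2, and miR-30c-2* from the second alone. The miR-30e pair, whose hairpin lies beside Mir30c-1 on chromosome 4, had a difference of -0.27 (95% interval -0.52 to -0.0079), which did not pass (limma adjusted p = 0.121). Its ratios did not overlap, at -2.59, -2.76, -2.58 and -2.80 on the C arrays against -2.88, -2.93 and -3.04 on the S arrays.

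MiR-24-1* did not differ detectably by itself, at 3.72, 3.82, 3.80 and 3.63 against 3.89, 3.78 and 3.30 (log2 fold change -0.090, SE 0.143, limma adjusted p = 0.602), though without scaling it was -1.25, with spike-in controls -0.77 and with the mean of all miRNAs -0.97, each past the threshold. With normexp it passed as higher (0.26, limma adjusted p = 0.00911). Guide miR-24 fell by 0.60 on the log2 scale (SE 0.078, limma adjusted p = 1.46e-04). The ratio rose from -7.05, -6.84, -6.95 and -7.14 to -6.32, -6.36 and -6.77, a difference of 0.51 (95% interval 0.22 to 0.80, limma adjusted p = 0.00927). Neither of the 2 calls held for every left-out array. The miR-24-1* pair missed the threshold without C1, C4, S1 or S3, with limma adjusted p from 0.0232 to 0.0938 and differences from 0.43 to 0.65 over all 7 left-out arrays. The miR-30c-2* pair missed it without C1, S1 or S4, with limma adjusted p from 0.0194 to 0.0231 and differences from -0.78 to -0.54. With Agilent's own summed signal neither passed (0.27 for miR-24-1*, limma adjusted p = 0.452, and -0.66 for miR-30c-2*, limma adjusted p = 0.0726), and with quantile normalization the miR-30c-2* pair did not (-0.13, limma adjusted p = 0.625).

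For the other 7 pairs no difference passed with the processing used. The ratio differed by 0.013 for miR-30b* (95% interval -0.33 to 0.35), 0.047 for miR-30a* (-0.24 to 0.34), -0.084 for miR-29c* (-0.35 to 0.19), -0.15 for miR-22* (-0.44 to 0.13) and 0.20 for miR-200b* (-0.12 to 0.52). The interval of the last reaches the size of the miR-24-1* difference. MiR-200a* had a difference of 0.42 (95% interval 0.12 to 0.72, limma adjusted p = 0.0342), and its ratios did not overlap between the labels. The miR-200a* pair passed with quantile normalization (0.86, limma adjusted p = 3.9e-05) and without C3 (0.53, limma adjusted p = 4.34e-04). With normexp the miR-30e* pair passed (-0.51, limma adjusted p = 0.00754). In these 7 pairs both strands were higher on the S arrays with the scaling used.

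**Figure D4:**
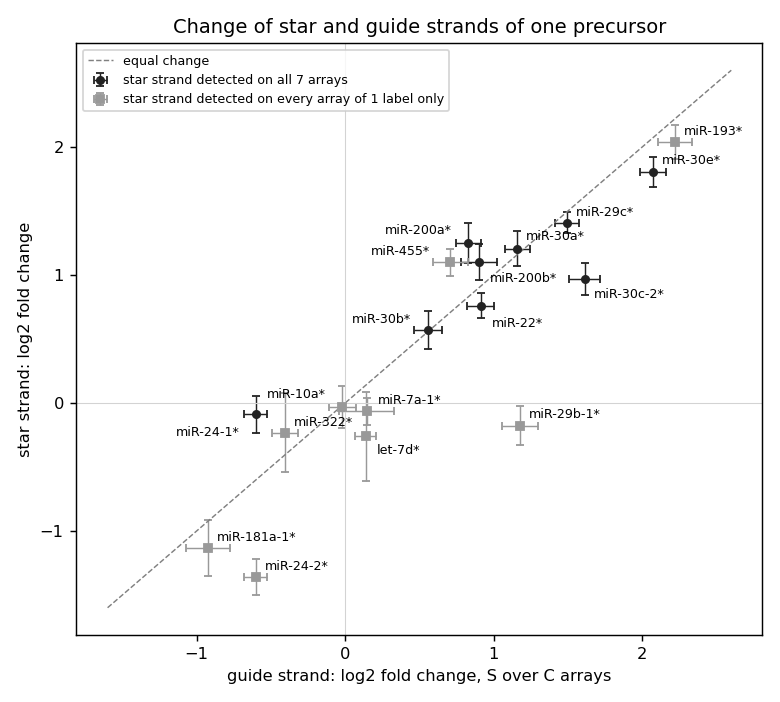
Log2 fold change, S arrays over C arrays, of the guide (horizontal axis) and of the star strand (vertical axis) for the 18 tested star strands whose guide was detected on all arrays; black circles are star strands detected on all 7 arrays, grey squares those detected on every array of 1 label only, bars are standard errors and the dashed line is equal change. Most points lie near the line, and miR-30c-2*, miR-29b-1*, miR-24-1* and miR-24-2* lie away from it.

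**Figure D5:**
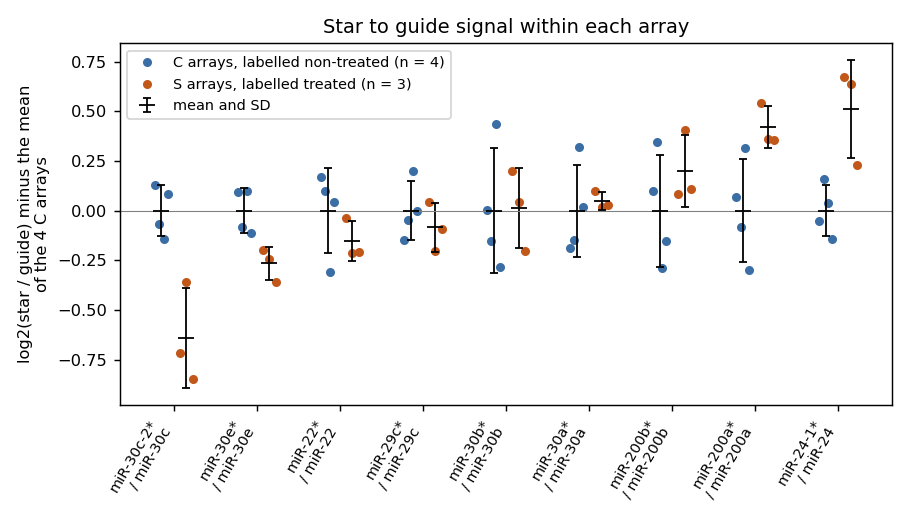
Log2 ratio of star to guide signal within each array, less the mean of the 4 C arrays (vertical axis), for the 9 pairs with both strands detected on all arrays; points are arrays, blue for C arrays and orange for S arrays, and bars are the mean and SD. The miR-30c-2* ratio lies lower and the miR-24-1* ratio higher on the S arrays. The labels do not overlap either for miR-30e*, lower on the S arrays, and miR-200a*, higher, which did not pass.

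The miR-24 loci were followed further, in comparisons chosen after the values were seen. MiR-24-2*, which shares its guide with miR-24-1*, had 3.95, 4.05, 4.03 and 3.86 against 2.79, 2.78 and 2.26, a log2 fold change of -1.36 (SE 0.140, limma adjusted p = 3.94e-05). It was called detected on all 4 C arrays and on 1 S array, so it was tested through the C arrays alone and the size of the fold rests on S-array signals mostly without a detection call. With the highest floor it was -1.20 (limma adjusted p = 5.13e-06). With the deposited table it was -0.73 and did not pass (limma adjusted p = 0.411), but without S4 it was -1.41 and passed (limma adjusted p = 0.00901). With normexp it turned to 0.20, not past the threshold. MiR-24-1*, by contrast, was called detected on all 7 arrays, and no test of the difference between these star strands is given. On chromosome 8 Mir24-2 lies in a cluster with miR-23a and miR-27a, and on chromosome 13 Mir24-1 lies in one with miR-23b and miR-27b.

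These 4 cluster members were detected on all 7 arrays. MiR-23a fell by 0.995 (SE 0.097, limma adjusted p = 3.04e-05) and miR-27a by 0.72 (SE 0.089, limma adjusted p = 1.09e-04) on the log2 scale. MiR-23b, at -0.27 (SE 0.088, limma adjusted p = 0.022), and miR-27b, at -0.0033 (SE 0.084, limma adjusted p = 0.982), did not pass. These values depend on the scaling. Before it, linear signals were 1949, 2280, 1384 and 1977 against 660, 903 and 559 for miR-23b. For miR-27b they were 554, 623, 314 and 537 on the C arrays against 204, 303 and 172 on the S arrays. Within an array, miR-23b minus miR-23a was 0.72 higher and miR-27b minus miR-27a 0.72 higher on the S arrays, with no overlap of the labels. Both contrasts had the smallest exact permutation p possible, 0.0571, or 0.0799 after adjustment over the 7 contrasts computed. MiR-23a and miR-23b, like miR-27a and miR-27b, are nearly the same in sequence, and cross-reaction of their probes was not tested.

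The same contrast between star strands with one seed gave 0.60 for miR-30e* minus miR-30a*, from -0.78, -0.86, -1.09 and -1.05 to -0.31, -0.32 and -0.41 (exact permutation p = 0.0571, 0.0799 adjusted). For miR-200a* minus miR-200b*, also with one seed, the labels overlapped, with a difference of 0.15 (exact permutation p = 0.514). They overlapped too for miR-30a* minus miR-30c-2*, neighbours on chromosome 1 with different seeds, with 0.23 (exact permutation p = 0.229, 0.267 adjusted).

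Markers of kidney and other cells were read beside these results. All 6 tubule miRNAs listed, miR-192, miR-194, miR-204, miR-30a, miR-200b and miR-10a, were detected on every array. From the C to the S arrays their mean log2 signals went from 7.56 to 10.8 for miR-192 and from 5.91 to 8.83 for miR-194, but from 5.45 to 4.89 for miR-204. MiR-30a went from 10.5 to 11.7 and miR-200b from 9.35 to 10.3, while miR-10a stayed level, at 9.98 and 9.96. MiR-30a and miR-200b are also guides of star strands described here. The leukocyte miRNAs miR-142-3p, miR-223 and miR-150 went from 9.14 to 7.19, from 9.03 to 6.70 and from 4.67 to 2.91. The red cell miRNAs miR-144 and miR-451 went from 4.37 to 6.98 and from 10.5 to 12.2. MiR-206 and miR-208b of muscle, miR-122 of liver, miR-124 of brain, and miR-216a and miR-217 of pancreas were detected on no array. Of the same lists, muscle miR-1 was detected on all 7 arrays and went from 4.02 to 3.30, muscle miR-133a was detected on 3 C arrays and no S array, pancreatic miR-375 on 4 C arrays and no S array, and miR-9 of brain on 2 C arrays and 1 S array. With the scaling used, several cell type miRNAs thus differed between the labels, as star strands did, but miR-10a did not. Its level course depends on that scaling. Before scaling, miR-10a had linear signals of 1509, 1691, 1047 and 1551 on the C arrays and 627, 854 and 470 on the S arrays. Marker values under other scalings are not given here. The part of the cell type miRNAs in the star-strand differences was not tested.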

How the data were processed

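Kidney RNA was measured on 7 arrays. The authors deposited Agilent Feature Extraction 10.7.3.1 output, whose processed signals are background-subtracted spot intensities, linear and not normalized between arrays. The value table the authors deposited holds the processed intensity of the first spot of each probe, and for treated replicate 4 its error estimate. From the 13920 spots per array, spots without outlier flags were averaged per probe, summed per miRNA, divided by the array's geometric mean over the 186 miRNAs called detected everywhere, raised to a floor of 1.32 (log2; the median over arrays of the lowest detected signal) and tested with limma 3.58.1 in R 4.3.3, with Benjamini-Hochberg adjusted p below 0.01 over the 236 miRNAs that every array of a label detected. Star-guide ratios were tested likewise over 11 pairs. The scaling, the floor and the limma fits were run on simulated data with known changes. Spot averaging, probe summing, the detection filter and the permutation tests were not part of that simulation. Exact permutation tests were 2-sided. The small number of arrays limits the precision, and no spot was saturated.

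The members and lists were chosen with earlier results of these data known. Named by rule are star strands past the threshold, detected on all arrays and without overlap (up to 10 in each direction), those detected on every array of one label and none of the other, those not past it nearest 0 (up to 5), the pairs past the threshold and up to 5 nearest 0, the 5 strongest signals, and each guide. Replicate numbers did not pair the arrays. The correlations of deviations were 0.049, -0.089 and 0.14.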

Additional observations from a re-analysis of the deposited data

Results flagged for a closer look

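Among 23 groups of 4 arrays examined for a value standing apart, 2 had one, where chance alone gives about 5%. The log2 signal of miR-30a* on C3 was 6.46, against 5.91 to 5.98 on the other 3 C arrays, a gap of 0.867 of the whole range. The same array had a mean log2 signal of 6.65 over the miRNAs detected on all arrays before scaling, against 7.40 to 7.52, a gap of 0.859 of the range. Without this array the log2 fold change of miR-30a* was the highest of those with an array left out, 1.31.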

How the results depend on the processing

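Of the 16 star strands past the threshold, all 16 remained past it with the lowest floor or a threshold of 0.05. On the S arrays 11 star strands were higher and 5 lower, counts that became 3 and 10 when scaled by the mean of all miRNAs, 0 and 10 without scaling, 5 and 9 with spike-in controls, 17 and 0 with normexp, 6 and 0 with the deposited table, and 7 and 3 when a log2 fold change of at least 1 was asked for. The lower count alone became 2 without a detection filter, 2 among miRNAs detected on all arrays, 3 with the highest floor, 2 with the methods' t-test after adjustment, and 2 with the deposited table without treated replicate 4, an alternative chosen after seeing the data. The median over the star strands tested, 0.27, became -0.45 with the mean of all miRNAs, 0.031 with the 75th percentile over those detected everywhere, 0.52 with that over all, -0.67 without scaling, -0.31 with spike-in controls, 0.044 with Agilent's total gene signal, 1.21 with the deposited table and 0.72 with it without treated replicate 4, 0 without a detection filter, and 0.98 among miRNAs detected on all arrays. The count of pairs that differed, 2, became 0 with Agilent's total gene signal, the deposited table (also without treated replicate 4), the methods' t-test after adjustment or a minimum log2 difference of 1, 1 with the t-test unadjusted, 1 with the replicate block, and 21 without a detection filter. Without that filter all star-guide pairs of the array were tested, including star strands at the floor on every array, where the ratio follows the guide alone. Neither miR-30c-2* (limma adjusted p = 0.0198) nor miR-24-1* (limma adjusted p = 0.0355) was among those 21, and where pairs needed detection on every array of 1 label only, 2 passed but neither of them (0.0112 and 0.0272). With an array left out, it ran from 0 to 3, the higher count from 9 to 11, the lower count from 3 (without S4) to 5, and the median from 0.074 (without C3) to 0.70 (without S4). Under the stricter detection limit 18.5 and 11 star strands were detected per array at the median, against 26 and 15.

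Signs of values that passed the threshold in at least one of the 2 settings turned in these cases, and the cause was not tested except where stated. With the mean of all miRNAs, miR-22* was at -0.12 and miR-30b* at -0.31. Without scaling, miR-200b* was at -0.056, miR-22* at -0.40, miR-30b* at -0.59, miR-30c-2* at -0.18, miR-455* at -0.057 and miR-9* at -0.16. With spike-in controls miR-30b* was at -0.11. With normexp, whose offset of 50 is larger than most star-strand signals and was scaled with each array, let-7d* was at 0.51, miR-10a* at 0.48, miR-135a-1* at 0.47, miR-17* at 0.23, miR-181a-1* at 0.19, miR-24-1* at 0.26, miR-24-2* at 0.20, miR-29b-1* at 0.48, miR-322* at 0.50 and miR-674* at 0.22. A further 24 sign changes, over 6 star strands, were of values past the threshold in neither setting, among them let-7d* (1.04), miR-29b-1* (1.42) and miR-322* (1.47) with the deposited table and miR-7a-1* (0.21) with normexp.

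With the replicate block, miR-181a-1* no longer passed, nor did the miR-24-1* pair (limma adjusted p = 0.0116), although the numbers did not pair the arrays. Signals near the background limit most of the 93 star strands.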
